A study of Mus musculus with 18 samples.

Results

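The measurements below are the shift of the effect of induced Msgn1 in mouse embryoid bodies between 24 h and 48 h. For each gene the shift was the difference between induced and uninduced arrays at 48 h minus the same difference at 24 h, taken between group means on the scale log2(signal + 32). It rests on 12 of the 18 arrays of the series, and 14346 genes were tested. A shift can come from the induced arrays, from the uninduced arrays or from both, so each side's own change from 24 h to 48 h was measured as well.

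Msgn1 (mesogenin 1) is a transcription factor of the helix-loop-helix class, made in presomitic mesoderm, where somites are laid down. Its class binds the short DNA motif called the E-box. In the embryo, cells pass from the epiblast through the primitive streak and become presomitic, lateral, cardiac or blood-forming mesoderm, or endoderm. Bmp signals favour the lateral and blood-forming fates. Embryoid bodies, clumps of stem cells grown in suspension, begin these steps in culture.

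All groups came from the A2lox Flag-Msgn1 stem cell line of strain 129P2 (formerly called 129/Ola), which had been kept with LIF on mitomycin-treated mouse embryonic fibroblasts (feeder cells) and then differentiated for 2 days. Induced embryoid bodies then received doxycycline at 1 µg/ml, which switches on the Flag-tagged Msgn1, and uninduced ones did not. Collections followed after 12, 24 and 48 h, and each of the 6 groups has 3 arrays, which the labels call biological replicates. Both kinds were collected at the same ages, so the uninduced arrays record differentiation over the same hours. The labels name 1 line, and no group here received doxycycline without the Msgn1 cassette, so an effect of the drug itself and of Msgn1 cannot be told apart.

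The arrays were alike in scale, with medians of 18.8 to 22.1 signal units and correlations between replicates of 0.990 to 0.994 over genes. The number of arrays, 3 a group, limits the precision. Both 24 h arrays numbered 3 stood apart from the other 24 h arrays. Their deviations from the group means correlated with each other at 0.44 over genes. Their 3' to 5' signal ratios for actin were 1.95 and 2.1 against 1.54 to 1.68 on the other 24 h arrays. Ratios on the 12 h arrays were 1.71 to 2.16, so these 2 arrays lay within the range of the series. Without both, 371 genes were called in the shift (169 upward, 202 downward), 320 of them among the 440 called with all arrays, and the side that moved further was the induced one for 206, the uninduced one for 70 and not separated for 95. The count for the 24 h effect was 326 without both and 552 with all arrays. Embryoid bodies are mixtures, and in RNA from whole bodies fewer cells of a type and less RNA per cell cannot be told apart.

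Between 24 h and 48 h the effect of induction changed for 440 of 14346 genes, 3.07% of those tested, at a limma adjusted p under 0.05. The shift was upward (induced gaining on uninduced) for 207 genes, or 1.44%, and downward for 233 genes, or 1.62%. Change over time in either kind of embryoid body was far more common: 3685 genes (25.7%) changed in induced arrays and 3500 (24.4%) in uninduced arrays. Across all genes tested these 2 changes, which share no array, correlated at 0.718, given as a description since genes are not independent replicates. The induction effect itself was called for 552 genes (3.85%) at 24 h and for 1768 (12.3%) at 48 h.

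The first reading of the 440 genes was by which side's change was called. Only the induced change was called for 202 genes (109 with upward and 93 with downward shifts), and only the uninduced change for 84 (29 upward, 55 downward). Both sides changed in the same direction but by unequal amounts for 114 genes, and in opposite directions for 39. For 1 gene, Castor2, which encodes an arginine sensor, neither side was called: the induced change was -0.31 and the uninduced change 0.30 on the log2 scale. The Castor2 shift lost its call in 9 of the 12 fits without 1 array and, among other settings, with the replicate block (adjusted p = 0.0551), with an adjusted p of up to 0.126. A call on 1 side only is no test that the sides differ in size, so the second reading used the sum of both changes, whose sign, with that of the shift, says which side moved further. By that test the induced side moved further in 248 genes (133 upward, 115 downward) and the uninduced side in 80 (28 upward, 52 downward). In the other 112 the sides moved in opposite directions and the larger move was not separated by the test. The plot of both changes shows these classes as bands around the line of equal change.

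**Figure D1:**
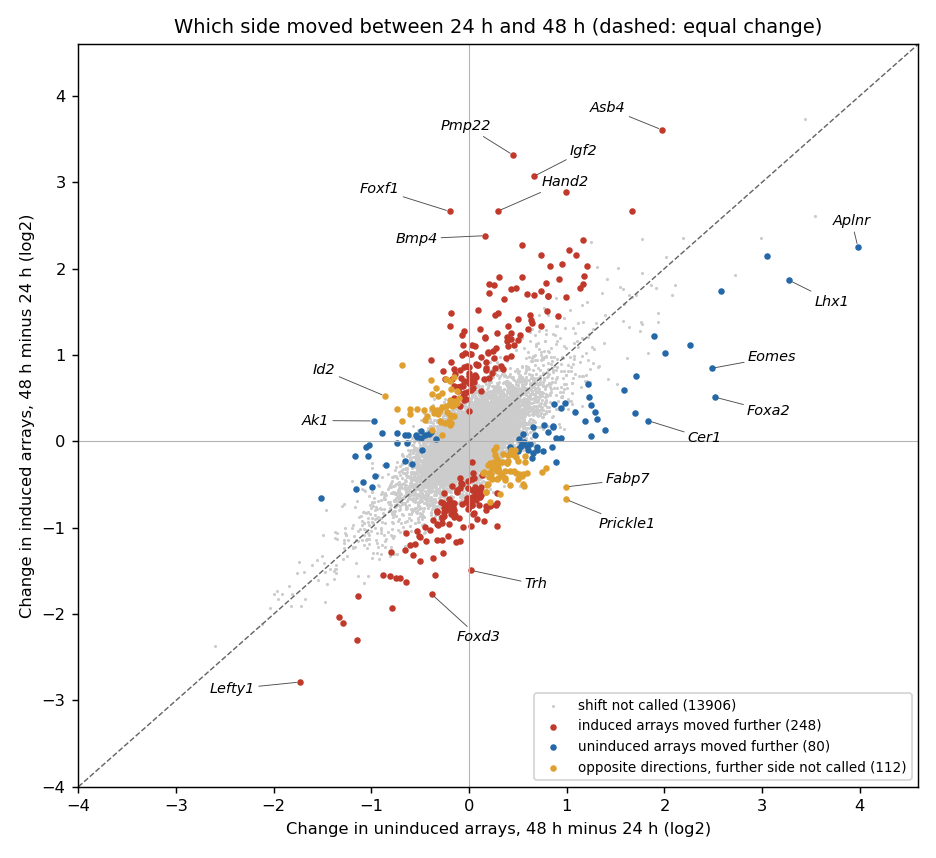
Each point is a gene, with its change from 24 h to 48 h in uninduced arrays on the horizontal axis and in induced arrays on the vertical axis (log2 scale, 3 arrays a group). Distance from the dashed line is the shift. The 248 red genes moved further in induced arrays and the 80 blue genes further in uninduced arrays. For 112 orange genes the estimated changes had opposite signs, not always called on both sides, and the further side was not called.

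The shifts also differed in where the effect began and ended. For 317 of the 440 genes the effect was called at 48 h only (157 upward, 160 downward). For 43 genes an effect called at 24 h was larger in the same direction at 48 h, and 32 of these shifts were upward. The effect was smaller or no longer called at 48 h for 45 genes, 35 of which shifted downward, and it changed sign for 9. For 26 genes the shift was called though neither effect was. The genes nearest the threshold were Wdr35 (shift 0.52, adjusted p = 0.0489) and Ctbp2 (-0.34, 0.04968) inside it, and Peg10 (0.53, 0.05006) and Cldn6 (-0.66, 0.05006) outside it.

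The 12 h arrays do not enter the shift and show the effect before it. Over all genes the 12 h effect was called for 153, or 1.07%, of which 128 were higher in induced arrays. It was called for 7 of the 52 downward genes whose uninduced side moved further, each time higher in induced arrays. Among the 115 downward genes whose induced side moved further it was called for 13, of which 12 were higher in induced arrays. Among the 133 upward genes whose induced side moved further 3 were called at 12 h. The earlier step, from the effect at 12 h to the effect at 24 h, was called for 15 genes, or 0.105%, and it shares the 24 h arrays with the later step.

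The 250 bases before the transcription start are printed for 4 genes that stand for the first 3 of the patterns that follow. Hand2 stands for a rise in induced arrays, Trh for a fall in induced arrays, Eomes for an uninduced side that reached the induced level, and Cer1 for an uninduced side that passed it. The sequences are RefSeq's for GRCm38.p6, written 5′ to 3′ on the gene's strand, with each E-box (CANNTG, a motif that reads alike on both strands) in capitals.
Hand2, chr8:57320733-57320982, plus strand: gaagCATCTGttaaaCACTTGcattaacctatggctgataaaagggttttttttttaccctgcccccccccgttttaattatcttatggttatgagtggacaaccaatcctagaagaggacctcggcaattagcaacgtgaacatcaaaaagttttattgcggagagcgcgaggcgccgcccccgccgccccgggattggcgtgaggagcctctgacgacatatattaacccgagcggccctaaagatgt
Trh, chr6:92244651-92244900, minus strand: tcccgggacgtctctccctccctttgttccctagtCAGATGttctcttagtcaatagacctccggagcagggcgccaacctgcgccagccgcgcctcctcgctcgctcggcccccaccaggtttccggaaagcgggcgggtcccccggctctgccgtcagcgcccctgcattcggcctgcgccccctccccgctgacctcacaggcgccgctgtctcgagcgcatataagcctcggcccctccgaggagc
Eomes, chr9:118477939-118478188, plus strand: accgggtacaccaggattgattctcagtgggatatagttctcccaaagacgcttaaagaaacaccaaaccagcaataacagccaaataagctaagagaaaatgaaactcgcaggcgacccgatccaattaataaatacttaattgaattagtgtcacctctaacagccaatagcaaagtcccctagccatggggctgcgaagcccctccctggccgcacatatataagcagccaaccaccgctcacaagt
Cer1, chr4:82885152-82885401, minus strand: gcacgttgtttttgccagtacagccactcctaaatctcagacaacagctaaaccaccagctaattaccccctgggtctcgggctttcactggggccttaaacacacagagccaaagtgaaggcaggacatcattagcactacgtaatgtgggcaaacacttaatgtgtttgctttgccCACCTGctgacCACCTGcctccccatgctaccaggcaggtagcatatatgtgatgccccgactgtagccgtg
The Hand2 window held 2 E-boxes (CATCTG and CACTTG), the Trh window 1 (CAGATG), the Eomes window 0 and the Cer1 window 2 (both CACCTG). The motif is short and common: 66% of all 27025 genes with a promoter entry and 58.4% of the 11503 tested ones had at least 1 in these 250 bases. The shares were 54.3% of 92 upward genes whose induced side moved further, 61.4% of 88 downward ones, and 63.4% of 41 downward genes whose uninduced side moved further. A match is a description of the letters and not a binding site.

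Msgn1 itself was higher in induced arrays at each time, and its own shift was not called. In uninduced arrays its signal was 12, 16.3 and 5.22 at 24 h and 5.05, 8.68 and 4.69 at 48 h. In induced arrays it was 56.7, 52.9 and 67.3 at 24 h and 53.5, 56.3 and 44.5 at 48 h. Every induced array lay above every uninduced one at both times. Its induction effect was 1.01 at 12 h, 1.08 at 24 h and 1.13 at 48 h on the log2 scale, and its shift was 0.048 ± 0.16 (SE; limma adjusted p = 0.948). All but 1 of these uninduced signals lay below the filter level of 13.3 and all below the offset of 32, so the offset largely sets the size of these log2 differences and they do not show that the effect was equal at the different times.

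Genes of lateral and cardiac mesoderm rose in induced arrays and held 4 of the 10 largest upward shifts (Foxf1, Hand2, Bmp4 and Msx2). Of 26 measured genes of that list 11 shifted upward and 0 downward, where 1.44% of all genes shifted upward and 1.62% downward. The median shift was 0.558 against -0.000788 over all genes. Like all lists here it was chosen with earlier results of these data known, so its counts are a description and were not tested. In all 11 the induced side moved further. The 11 were Foxf1, Hand2, Bmp4, Msx2, Bmp5, Isl1, Tbx20, Msx1, Bmp2, Myl7 and Tbx2.

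Foxf1, a forkhead factor of lateral plate mesoderm, had signals of 12.2, 23.1 and 13.4 in uninduced and 2.45, 12.6 and 25.5 in induced arrays at 24 h. At 48 h the uninduced arrays gave 8.44, 10.4 and 10.8 and the induced arrays 367, 137 and 299. The induced arrays at 48 h stood clear of all others, while every array of the other 3 groups was at 25.5 or under. The shift was 2.86 ± 0.30 (SE; limma adjusted p = 6.81e-06), made of an induced change of 2.66 and an uninduced change of -0.20.

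Hand2, a helix-loop-helix factor of heart and limb, gave 6.97, 1.37 and 14.8 in uninduced and 13.6, 14.7 and 13.7 in induced arrays at 24 h. The 48 h signals were 21.3, 20.2 and 8.31 in uninduced and 329, 198 and 268 in induced arrays. Only the induced arrays at 48 h left the low range, and the shift was 2.37 ± 0.22 (adjusted p = 1.43e-06). With an average over all probe sets of each gene in place of the brightest one, the shifts of Foxf1 and Hand2 were 1.68 and 1.28, and both were still called. Isl1, a marker of second heart field progenitors, went from 22.9 to 131 mean signal in induced arrays and from 21.2 to 24.8 in uninduced arrays. Tbx20, a T-box factor of the heart, shifted by 1.36 (adjusted p = 9.95e-05).

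Genes of Bmp signalling shifted with them. The list of Nodal and Bmp genes holds 29 measured members, of which 12 shifted upward and 2 downward, with a median of 0.416. It shares Bmp2, Bmp4, Bmp5, Msx1 and Msx2 with the lateral list. The 2 that shifted downward were Lefty1 and Tdgf1, which act in the Nodal branch.

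Bmp4, a secreted ligand, had signals of 73, 54.4 and 77.2 in uninduced and 90.5, 82.4 and 83.2 in induced arrays at 24 h. At 48 h the signals were 50.1, 116 and 83.5 in uninduced and 914, 336 and 622 in induced arrays. The 3 induced arrays at 48 h spread widely but all lay above every other array, and the shift was 2.21 ± 0.33 (SE; limma adjusted p = 0.000352). Msx2, a homeobox gene that answers Bmp, rose on both sides, by 2.88 in induced and 0.99 in uninduced arrays. Its shift of 1.89 was therefore an unequal rise, and it was 1.07 with the mean of its probe sets.

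Inhibitors and direct targets of the pathway were among the 12. The inhibitory Smad6 shifted by 1.05, the extracellular modulator Bmper by 1.10 and the decoy receptor Bambi by 0.70. Of the Id genes, which encode inhibitors of helix-loop-helix factors and respond to Bmp, Id1 shifted by 0.85 and Id3 by 0.56, in both cases with the induced side moving further. Id2 differed from them in that both sides changed: it rose by 0.52 in induced arrays (adjusted p = 0.000885) and fell by 0.86 in uninduced arrays (adjusted p = 3.57e-06). Its signals at 24 h were 876, 869 and 1068 in uninduced and 705, 819 and 734 in induced arrays. At 48 h they were 555, 426 and 529.5 in uninduced and 1213, 952 and 1129 in induced arrays. The order of the groups was opposite at the 2 times without overlap. Of the 2 Id2 effects only that at 48 h (1.08) was called, and that at 24 h (-0.30) was not. The Id2 shift was 1.38, and 1.01 with the mean of its probe sets.

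**Figure D2:**
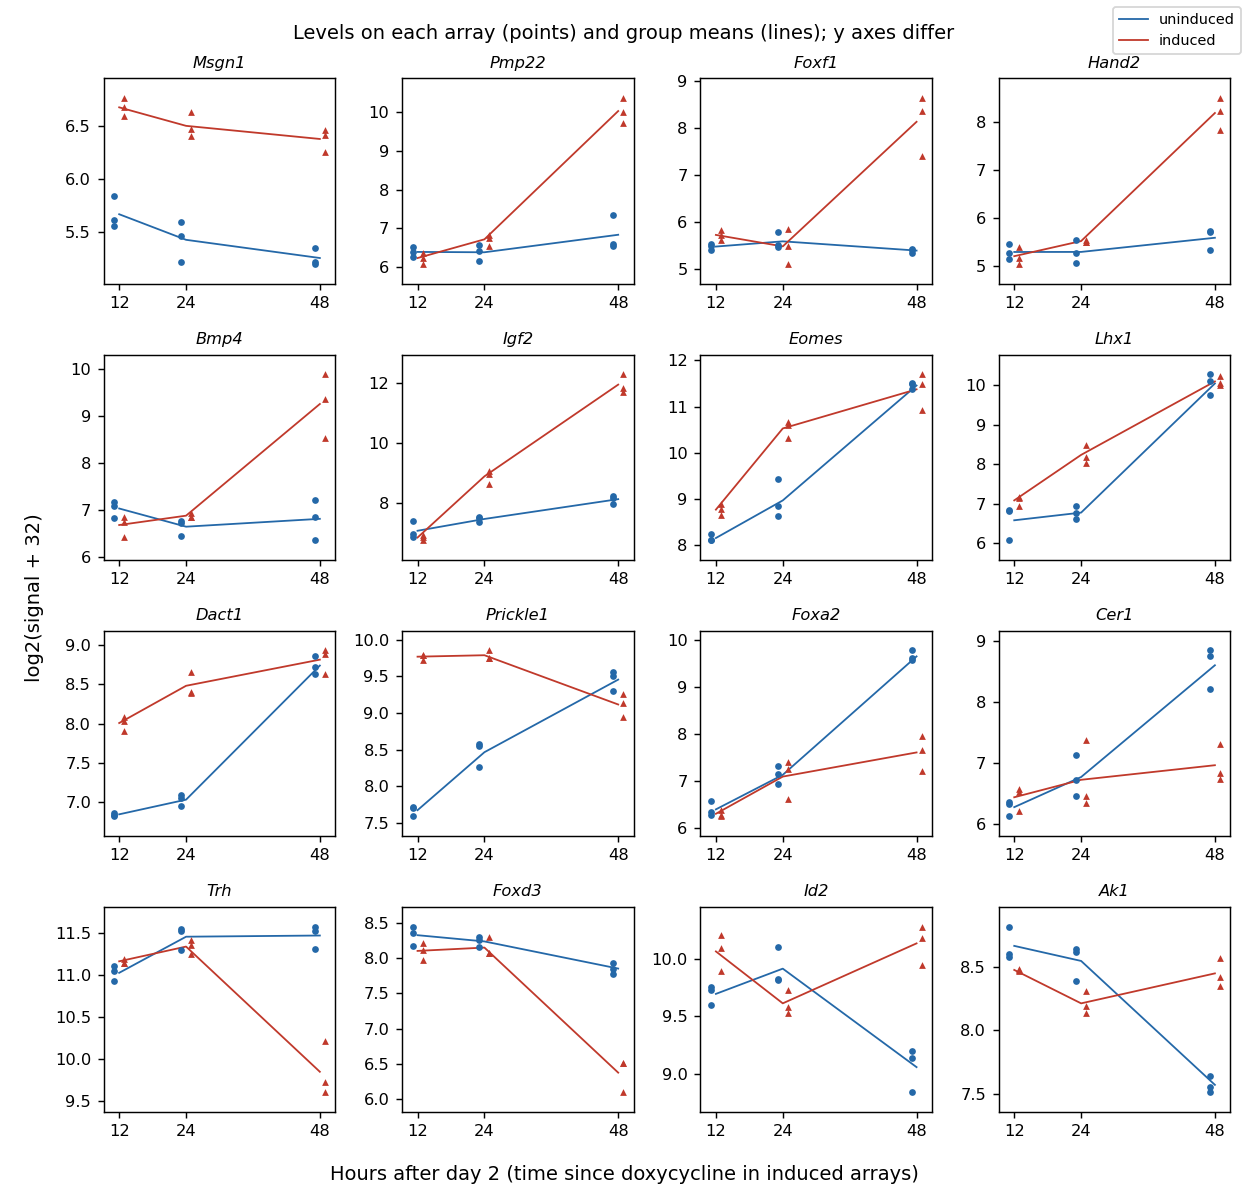
Levels of 16 genes as log2(signal + 32) against hours after day 2, with a point for each array, lines through group means of 3 arrays, and a separate vertical axis for each gene. Pmp22, Foxf1, Hand2 and Bmp4 leave the uninduced level upward at 48 h, Igf2 is above it at 24 h and further above at 48 h, Eomes, Lhx1 and Dact1 start apart and meet at 48 h, Foxa2 and Cer1 rise in uninduced arrays, and Trh and Foxd3 fall in induced arrays.

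Pmp22 and Igf2 stood beside the lateral genes at the top of the order. Pmp22, a membrane protein known from peripheral myelin, had signals of 62.2, 76.8 and 82.1 in induced arrays at 24 h and 1284, 808 and 1006 at 48 h. In uninduced arrays it was 63.9, 39.3 and 53.4 and 61.8, 132 and 65.2 at those times, so these overlapped, and the shift was 2.86 ± 0.25 (limma adjusted p = 7.69e-07). Igf2, an imprinted growth factor gene, was already higher in induced arrays at 24 h.

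The Igf2 signals at 24 h were 131, 149 and 152 in uninduced and 368, 465 and 498 in induced arrays. By 48 h they were 217, 257 and 268 in uninduced and 4990, 3326 and 3650 in induced arrays. No 2 of these groups overlapped, and the effect grew from 1.43 to 3.83, a shift of 2.40 ± 0.20 (adjusted p = 4.06e-07). With the mean of its probe sets the Igf2 shift was 1.79 and still called. Of the 20 measured imprinted and growth genes 5 shifted upward and 0 downward, with a median of 0.12. The others were Phlda2 (1.33), an imprinted gene that limits placental growth, Igfbp3 (0.88), which encodes a binding protein of insulin-like growth factors, the amino acid transporter Slc38a4 (0.54) and Mest (0.50). The call for Slc38a4 was lost without the induced 48 h array numbered 3, at an adjusted p of 0.0509.

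The other genes among the 10 largest upward shifts were Amer3, Tbx3, Asb4 and Hapln1. Tbx3, a T-box factor listed with naive pluripotency and also expressed in heart and limb, gave 160.2, 146 and 169.6 in induced arrays at 24 h and 539, 432 and 542 at 48 h. Its uninduced signals were 134, 78.1 and 99.4 and 86.3, 91 and 81.5 and overlapped. It shifted upward by 1.67, and by 1.17 with the mean of its probe sets. Its list of 21 naive pluripotency genes had a median of 0.1, with 2 downward calls, Trh and Nanog. Asb4, an ankyrin repeat gene, rose on both sides, by 3.60 in induced and 1.98 in uninduced arrays. Hapln1, a link protein of hyaluronan matrix, was low in all groups but the induced arrays at 48 h (132, 112 and 126) and shifted by 1.62 (0.96 with the mean of its probe sets).

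Blood and endothelial genes shifted upward in smaller steps. Of 31 measured 7 were called, all upward, with a median of 0.366: Kdr, Erg, Sox7, Lyl1, Tal1, Tek and Eng. Kdr, the Vegf receptor of early vascular and blood progenitors, had signals of 37.8, 40.5 and 38.1 in uninduced and 112, 133 and 144 in induced arrays at 24 h. By 48 h it gave 75.3, 136 and 77.5 in uninduced and 663, 556 and 668 in induced arrays. Induced arrays were above uninduced ones at both times, both sides rose, and the effect grew by 1.21 ± 0.21 (SE; adjusted p = 0.00133).

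In Tal1, Tek, Eng and Lyl1 the further side was not called. Tal1, a master factor of blood formation, had an induced change of 0.29 and an uninduced change of -0.44, with effects of 0.80 at 24 h and 1.53 at 48 h. Sox7, which is also listed with extraembryonic endoderm, shifted by 0.91, and by 0.46 with the mean of its probe sets. The call for Lyl1, at 0.90, was lost in 11 of 24 other settings, among them 7 of the 12 fits without 1 array, where its adjusted p reached 0.118.

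Of 7 measured anterior Hox genes 4 shifted upward, Hoxb2 (1.07), Hoxb1 (0.78), Hoxb3 (0.71) and Hoxd1 (0.66), and the median was 0.66. They encode homeobox factors that mark the position along the head-to-tail axis. Hoxb1 had signals of 15.6, 11.1 and 16.9 in uninduced and 38.8, 53.2 and 46.3 in induced arrays at 24 h. The 48 h signals were 24.7, 34 and 28.4 in uninduced and 168, 117 and 147 in induced arrays. The induced signals were above the uninduced ones at both times, and in all 4 genes the induced side moved further. The calls for Hoxb3 and Hoxd1 were each lost in 7 of the 12 fits without 1 array, with adjusted p-values up to 0.09 and 0.108, and that for Hoxb3 also with the replicate block (0.0605). Without both 24 h arrays numbered 3 the calls for Hoxb1, Hoxb2 and Hoxd1 were lost too. Those for Hoxb1, Hoxb3 and Hoxd1 were lost with an offset of 16, and that for Hoxd1 also with quantile normalization. Over all settings the adjusted p reached 0.0689 for Hoxb1 and 0.0838 for Hoxb2. None of 11 measured posterior Hox genes was called, with values of 0.66 for Hoxa7 and -0.49 for Hoxd13.

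Among 24 genes of mesenchymal transition 4 shifted upward (Snai2, Zeb1, Prrx2 and Vim) and 1 downward (Cxcl12), with a median of 0.41. Snai2, a repressor of epithelial genes, rose by 0.89 in induced arrays and fell by 0.68 in uninduced arrays. Its signals were 50.9, 58.5 and 73 in uninduced and 42.1, 25.4 and 28.6 in induced arrays at 24 h, and 29.1, 26.2 and 21.4 in uninduced and 133, 50.8 and 86.8 in induced arrays at 48 h. The uninduced arrays were the higher group at 24 h, where the effect of -0.54 was not called, and the lower at 48 h, where the effect of 1.03 was. The shift of Snai2 was 1.57 ± 0.24 (limma adjusted p = 0.000537), and 0.89 with the mean of its probe sets. Zeb1, a second such repressor, shifted by 1.19 (0.70 with the mean of its probe sets). Prrx2, a homeobox gene of mesenchyme, lost its call in 6 of the 12 fits without 1 array and with the 12 arrays alone, with an adjusted p of up to 0.077.

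Fibroblast genes were followed because the stem cells had been kept on feeders. Of 24 measured feeder genes 2 shifted upward, Col5a2 (0.64) and Sparc (0.53), and the median was 0.069. With the mean of its probe sets Sparc was at 0.29 and not called (adjusted p = 0.29). The summed signal of the list was 3723 to 4116 in uninduced and 4414 to 4648 in induced arrays at 24 h, and 3509 to 3863 and 4851 to 5274 at 48 h. Col1a1, the main collagen of fibroblasts, had mean signals of 20.4 and 22.8 at 24 h and 18.2 and 23.8 at 48 h. The part of feeder cells in the mesenchymal and lateral results was not tested.

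Genes that shifted downward with the uninduced side rising further formed the second pattern, and primitive streak genes led it. Of 22 measured streak and mesendoderm genes 6 shifted downward and 0 upward, with a median of -0.449, and in all 6 the uninduced side moved further: Foxa2, Eomes, Cer1, Lhx1, Gsc and Tdgf1. The median change of the list was 0.997 in induced and 1.77 in uninduced arrays, so both sides rose and the uninduced one by more. In part of these genes the uninduced arrays reached the induced level, and in others they passed it.

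Eomes, a T-box factor needed for mesoderm and endoderm formation, is of the first kind. At 24 h its signals were 427, 369 and 658 in uninduced and 1241, 1522 and 1595 in induced arrays. In the 48 h arrays they were 2871, 2848 and 2619 in uninduced and 1919, 3286 and 2849 in induced arrays. The groups were apart at 24 h and overlapped at 48 h, and the effect went from 1.55 to -0.083, a shift of -1.64 ± 0.23 (SE; limma adjusted p = 0.0002). Both sides had risen, by 2.48 in uninduced and 0.84 in induced arrays.

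Lhx1, a LIM homeobox gene of the streak and its derivatives, gave 66.2, 76.2 and 91.3 in uninduced and 231, 261 and 326 in induced arrays at 24 h. At 48 h it gave 1213, 1081 and 830.2 in uninduced and 1005, 1174 and 1031 in induced arrays. Again the groups were apart at 24 h and overlapped at 48 h, and the shift was -1.41 ± 0.23 (adjusted p = 0.001). Mixl1, a homeobox gene of the streak, was not called: its uninduced change was 3.54, its induced change 2.61 and its shift -0.93 (adjusted p = 0.0628).

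Presomitic genes were split. Of 33 measured 6 shifted downward (Aplnr, Prickle1, Dact1, Cyp26a1, Hes6 and Dll3), 2 upward (Hey2 and Nkd1), and the median was -0.053. Over all 14346 genes 411 were called higher in induced arrays and 141 lower at 24 h, and 975 higher and 793 lower at 48 h. At 24 h 17 of the 33 were higher in induced arrays and 0 lower, and at 48 h 21 were higher and 1 lower. The other 25 had no called shift, among them Mesp1 (effects 0.82 and 1.11), Rspo3 (0.86 and 0.98), Tbx6 (0.68 and 0.69) and Dll1 (0.86 and 0.72), with the 24 h effect first.

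Aplnr, the apelin receptor of early mesoderm, had signals of 64.1, 63 and 105 in uninduced and 475, 666 and 869 in induced arrays at 24 h. At 48 h they were 1627, 2046 and 1398 in uninduced and 3836, 2723 and 3182 in induced arrays. Induced arrays stayed above at both times, but the uninduced rise of 3.98 was larger than the induced rise of 2.25, a shift of -1.73 ± 0.27 (adjusted p = 0.000643; -1.0 with the mean of its probe sets). Cyp26a1, which breaks down retinoic acid, did likewise with a shift of -0.91. Its call was lost in 6 of the 12 fits without 1 array and without both 24 h arrays numbered 3, with adjusted p-values up to 0.073. Dll3, a Notch ligand-like protein of the segmenting mesoderm, kept an effect of 1.43 at 48 h after 2.12 at 24 h.

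Dact1, an intracellular regulator of Wnt signalling, had signals of 101, 91.8 and 105 in uninduced and 305, 303 and 370.3 in induced arrays at 24 h. By 48 h it gave 431, 390.3 and 364 in uninduced and 362, 455 and 439.8 in induced arrays, and the groups overlapped. Its effect had been called from 12 h (1.16) and was 0.075 at 48 h, a shift of -1.37 ± 0.14 (adjusted p = 3.9e-06).

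In Prickle1, a planar cell polarity gene, the groups changed order. The signals at 24 h were 344, 276 and 349.7 in uninduced and 832, 894 and 834 in induced arrays. The 48 h signals were 697, 720.2 and 601 in uninduced and 462, 583 and 531 in induced arrays. The uninduced signals rose by 0.99 and the induced signals fell by 0.67, both called, and the effect went from 2.09 at 12 h and 1.32 at 24 h to -0.34 at 48 h. Over the mean of its 3 probe sets the shift was -0.73 rather than -1.66. Hes6 is the exception among the 6, since its induced side moved further: it fell by 1.15 in induced arrays and fell by 0.44 in uninduced arrays.

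Among 30 Notch genes 4 shifted downward and 1 upward, with a median of -0.066. Jag1, a Notch ligand, rose by 0.85 in uninduced arrays, while its induced change was -0.069. The shift was -0.92 (adjusted p = 0.00148; -0.53 with the mean of its probe sets). Hey2, a transcriptional target of Notch, was the upward one, at 0.74, and its call was lost without the induced 48 h array numbered 1 (adjusted p = 0.0538). Of 28 Wnt genes 2 shifted upward (Apcdd1 and Nkd1) and 2 downward (Dact1 and Sfrp1). The upward calls were not stable: Apcdd1 lost its call in 7 and Nkd1 in 10 of the 12 fits without 1 array, with limma adjusted p-values up to 0.0793 and 0.153. With the mean of its 4 probe sets the Nkd1 shift was 0.33 and not called (adjusted p = 0.258). Nkd1 was also not called with the replicate block (adjusted p = 0.0551). The Sfrp1 call was lost without both 24 h arrays numbered 3 (adjusted p = 0.0511).

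**Figure D3:**
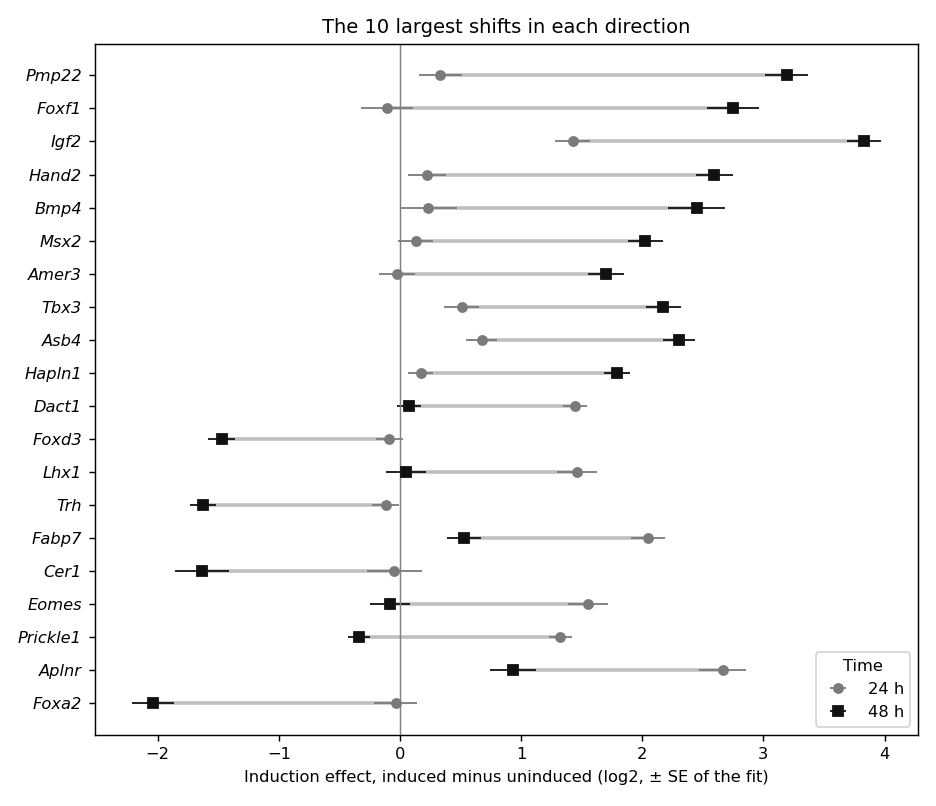
Induction effect (induced minus uninduced, log2) with the SE of the fit, at 24 h (grey circles) and 48 h (black squares), for the 10 largest shifts in each direction. In the 10 upward genes the 48 h effect is the higher one, from 1.70 for Amer3 to 3.83 for Igf2. In the downward ones it is lower but still above 0 (Aplnr, Fabp7), close to 0 (Eomes, Lhx1, Dact1), below 0 after a 24 h effect above it (Prickle1), or below 0 after a 24 h effect near it (Foxa2, Cer1, Trh, Foxd3).

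Some endoderm and node genes, such as Foxa2 and Cer1, were taken beyond the induced level by the uninduced arrays. Of 19 measured genes of that list 8 shifted downward and 0 upward, and the median of -0.659 was the lowest of the 29 lists. The 8 were Foxa2, Cer1, Trh, Gsc, Fgf5, Otx2, Foxj1 and Sox17, of which Foxa2, Cer1, Gsc and Sox17 moved further on the uninduced side and Trh and Otx2 on the induced side. The list had 3 genes higher in induced arrays and 0 lower at 24 h, and 3 higher and 11 lower at 48 h. Over all 14346 genes 411 were called higher and 141 lower at 24 h, and 975 higher and 793 lower at 48 h. The lists share members, so their counts are not independent. Of the 8, Foxa2, Cer1 and Gsc are also in the streak list, Fgf5 and Otx2 in the primed epiblast list and Trh in the naive pluripotency list.

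Foxa2, a forkhead factor of endoderm and node, showed the largest downward shift of all named genes. At 24 h its signals were 111, 90.6 and 127 in uninduced and 122, 66 and 139 in induced arrays and overlapped. In the 48 h arrays they were 844, 749 and 724 in uninduced and 116, 218 and 169.6 in induced arrays. The uninduced arrays at 48 h stood clear of all others, and the shift was -2.0 ± 0.25 (SE; limma adjusted p = 4.03e-05), from an uninduced rise of 2.51 and an induced rise of 0.51.

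Cer1, a secreted inhibitor of Nodal, Bmp and Wnt, gave 108, 55.9 and 73.5 in uninduced and 49.3, 55.8 and 134 in induced arrays at 24 h, again overlapping. The 48 h signals were 427, 263 and 400.2 in uninduced and 75, 127 and 82.5 in induced arrays. The uninduced change was 1.83 and called, the induced change was 0.24 (adjusted p = 0.484), and the shift was -1.59 ± 0.32 (adjusted p = 0.00496). The highest induced array at 24 h, at 134, was the one numbered 3.

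Sox17, a factor of endoderm, rose on both sides, from 72.4 to 597 mean signal in uninduced and from 72.8 to 317 in induced arrays. Gsc, a homeobox gene of the organizer, rose from 44.3 to 273 in uninduced and from 77.5 to 196 in induced arrays. Their shifts of -0.83 and -0.98 lost their calls in 7 and 6 of the 12 fits without 1 array, with adjusted p-values up to 0.122 and 0.105 over all settings. The Sox17 call was also lost with the replicate block (adjusted p = 0.0615). Pkdcc, a secreted kinase, and Epha7, an ephrin receptor, had the same form with a change of sign. The Pkdcc effect went from 0.84 to -0.43 and the Epha7 effect from 0.73 to -0.45, though Epha7 was not called with the mean of its probe sets (-0.51, adjusted p = 0.119).

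The third pattern was a fall in induced arrays, in some genes beside a smaller fall in uninduced arrays. Trh, the gene of thyrotropin-releasing hormone, which is expressed in stem cells and listed with both naive pluripotency and the node, showed it without any called uninduced change. Its signals at 24 h were 2910, 2479 and 2977 in uninduced and 2693, 2407 and 2586 in induced arrays. By 48 h they were 3026, 2518 and 2904 in uninduced and 746, 1151 and 814 in induced arrays. Only the induced arrays at 48 h were low, and the shift was -1.51 ± 0.16 (SE; limma adjusted p = 5.83e-06).

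Genes of core pluripotency and of the primed epiblast were the largest group in this pattern. Of 23 measured 12 shifted downward and 0 upward, with a median of -0.574. The induced side moved further in 7 (Foxd3, Lefty1, Otx2, Sox2, Utf1, Pou3f1 and Slc7a3), the uninduced side in 2 (Zic2 and Tdgf1), and 3 were not separated (Fgf5, Pim2 and Dnmt3b). All of the 7 but Otx2 also had a called fall in uninduced arrays, such as -1.29 for Utf1, -1.33 for Pou3f1 and -0.89 for Slc7a3. Pou3f1 and Slc7a3 were already called lower in induced arrays at 24 h (effects -0.58 and -0.48). The summed signal of the list was 53490 to 55080 in uninduced and 51120 to 51930 in induced arrays at 24 h, and 45800 to 50400 and 30450 to 37920 at 48 h.

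Foxd3, a forkhead repressor needed by stem cells, had signals of 281, 272 and 254 in uninduced and 237, 236 and 283 in induced arrays at 24 h. At 48 h they were 211, 187 and 199 in uninduced and 36.7, 59.8 and 59 in induced arrays. It fell on both sides, by 0.38 in uninduced and by 1.77 in induced arrays, and the shift was -1.39 ± 0.16 (adjusted p = 1.3e-05). Lefty1, an inhibitor of Nodal, also fell on both sides, to 443, 341 and 462 in uninduced and 149.9, 270.5 and 156 in induced arrays.

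Otx2, a homeobox gene of the primed epiblast and anterior brain, fell in induced arrays, from 2517, 2384 and 2453 to 1047, 1485 and 1160, while its uninduced change was -0.064, with a shift of -0.93 ± 0.13 (adjusted p = 0.00017). Sox2, a core pluripotency factor, went from a mean of 3196 to 1046 in induced and from 3730 to 2205 in uninduced arrays. Pou5f1 (Oct4), the other core factor, was not called: its means at 48 h were 4118 in uninduced and 3149 in induced arrays, and its shift was -0.27 (adjusted p = 0.135). Fgf5, a growth factor of the primed epiblast, rose by 0.54 in uninduced and fell by 0.41 in induced arrays. Eras and Irs4, signalling genes of stem cells outside the lists, were among the largest on the induced side, at -1.26 and -1.07, but Irs4 was not called with the mean of its 2 probe sets (-0.50, adjusted p = 0.122).

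In Nanog, a homeobox factor of naive pluripotency, the uninduced side moved further. Its signals were 1046, 1083 and 1294 in uninduced and 1388, 1315 and 1394 in induced arrays at 24 h. In the 48 h arrays they were 1821, 1741 and 1677 in uninduced and 1164, 1427 and 1241 in induced arrays. The induced arrays overlapped between the times, the uninduced ones rose, and the shift was -0.70 ± 0.11 (adjusted p = 0.000871).

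Of 31 measured genes of epithelial adhesion 17 fell in induced arrays and 3 in uninduced arrays, while 4 and 5 rose. Over all genes 25.7% changed in induced and 24.4% in uninduced arrays, counting both directions. Of the 31, 6 shifted downward and 0 upward (Rab25, Epcam, Spint2, Cdh1, Pkp2 and Esrp1), with a median of -0.384, and in all 6 the induced side moved further. Cdh1, the epithelial cadherin, had signals of 3992, 4084 and 4740 in uninduced and 3707, 3912 and 4124 in induced arrays at 24 h. At 48 h it had 4041, 3517 and 3682 in uninduced and 1669, 2627 and 2310 in induced arrays, so that the induced arrays at 48 h lay below all others, and the shift was -0.66 ± 0.15 (adjusted p = 0.0141). The Cdh1 call was lost without the uninduced 48 h array numbered 1, at an adjusted p of 0.05. Epcam, a surface adhesion protein, shifted by -0.70 and Spint2, a protease inhibitor of epithelia, by -0.68. Rab25, an epithelial trafficking GTPase, had the largest shift of the list at -0.99.

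Of 18 neural genes 3 shifted downward, Fabp7, Sox3 and Zic5, and the median was -0.146. Fabp7, a fatty acid binding protein of neural progenitors, was already higher in induced arrays at 24 h, at 303, 319.7 and 359.9 against 43.5, 46.9 and 77.8. At 48 h it was 179, 256 and 222 in induced and 169, 114 and 143 in uninduced arrays: the induced signal fell by 0.53 and the uninduced one rose by 0.99. Its effect of 2.05 at 24 h thus became 0.53. Sox3, a factor of epiblast and neural plate, fell on both sides and further in induced arrays, but was not called with the mean of its probe sets (-0.54, adjusted p = 0.124).

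In matrix genes the directions differed. Of 25 basement membrane and integrin genes 3 shifted upward (Hapln1, Fbln2 and Nid1) and 2 downward (Lama1 and Itga6). Lama1, the laminin chain of embryonic basement membrane, had an early effect, called from 12 h (1.37), which went from 1.45 at 24 h to 0.78 at 48 h as the induced signals fell from 119.8, 107 and 107 to 62.5, 48.5 and 69.2. Its call was lost without the uninduced 48 h array numbered 2 and without both 24 h arrays numbered 3, with an adjusted p of up to 0.0568. Nid1, a basement membrane linker, was not called with the mean of its probe sets (0.42, adjusted p = 0.12) or without both 24 h arrays numbered 3. Fbln2, a fibulin of the matrix, rose in induced arrays to 327, 204 and 206.

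The fourth pattern was an upward shift in which the uninduced side fell further, with 28 genes. Ak1, a kinase of adenine nucleotides, had the largest such shift. Its signals were 366, 302 and 359.7 in uninduced and 285, 259.5 and 249.7 in induced arrays at 24 h. By 48 h they were 168, 156 and 151 in uninduced and 348, 294 and 311 in induced arrays. The order of the groups reversed, with uninduced signals that fell by 0.97 and an induced change of 0.24, and the shift was 1.21 ± 0.13 (adjusted p = 6.81e-06).

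Gadd45g, a stress-inducible regulator, fell in uninduced arrays from 77.4, 66.1 and 130.1 to 15.6, 22.7 and 27.1, while its induced signals were 52.7, 73.2 and 69.6 and 49.2, 52.4 and 61.2 and overlapped. The uninduced 24 h array numbered 3 was the highest. Zfp365, a zinc finger gene, shifted by 0.99 in the same manner, and was not called with the mean of its 2 probe sets (0.53, adjusted p = 0.0617). Ifitm3, an interferon-induced membrane protein of early embryos, fell on both sides and further in uninduced arrays, from 2147, 1998 and 1933 to 721, 645 and 696 against 1546, 1576 and 1656 to 1127, 928 and 956 in induced arrays.

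Genes of p53 and stress responses shifted upward by mixed routes. Of 22 measured 6 were called, all upward, with a median of 0.321. The uninduced side moved further in Asns and Chac1, the induced side in Hspa1a, and 3 were not separated (Hspa1b, Cdkn1a and Ccng1). Cdkn1a, the cell cycle inhibitor p21 and a target of p53, rose by 0.37 in induced and fell by 0.47 in uninduced arrays. Its signals were 583, 504 and 639.9 in uninduced and 579, 641 and 607 in induced arrays at 24 h, with overlap, and 409, 411 and 399 in uninduced and 719.8, 829 and 837 in induced arrays at 48 h, without. Ccng1, a second p53 target, did the same with a shift of 0.77. Hspa1a, a heat shock protein gene, lost its call in 10 of the 12 fits without 1 array (limma adjusted p up to 0.103, and up to 0.14 over all settings).

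Several lists held no called shift or 1 or 2. None was called among 12 somite, 15 contractile muscle, 11 trophoblast, 23 S phase and 23 M phase genes. The values nearest to a call there included 0.72 for Hand1 (adjusted p = 0.0931) and 0.66 for Cdx2 (adjusted p = 0.107), which are listed with trophoblast and also mark mesoderm. Pdgfra, a receptor of paraxial mesoderm, rose on both sides, with a shift of -0.48 (adjusted p = 0.262). Of 26 FGF pathway genes 2 shifted downward (Fgf5 and the feedback inhibitor Spry2), of 26 glycolysis genes 1 did (Pdk1), and of 13 retinoic acid genes 1 did (Cyp26a1). Of 21 extraembryonic endoderm genes Sox7 shifted upward and Sox17 downward. Of 18 interferon and antigen processing genes 3 shifted upward (Usp18, Ifitm3 and Tap1) and 1 downward (Bst2), and the calls for Usp18, Tap1 and Bst2 were lost in 5, 10 and 4 of the 12 fits without 1 array.

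**Figure D4:**
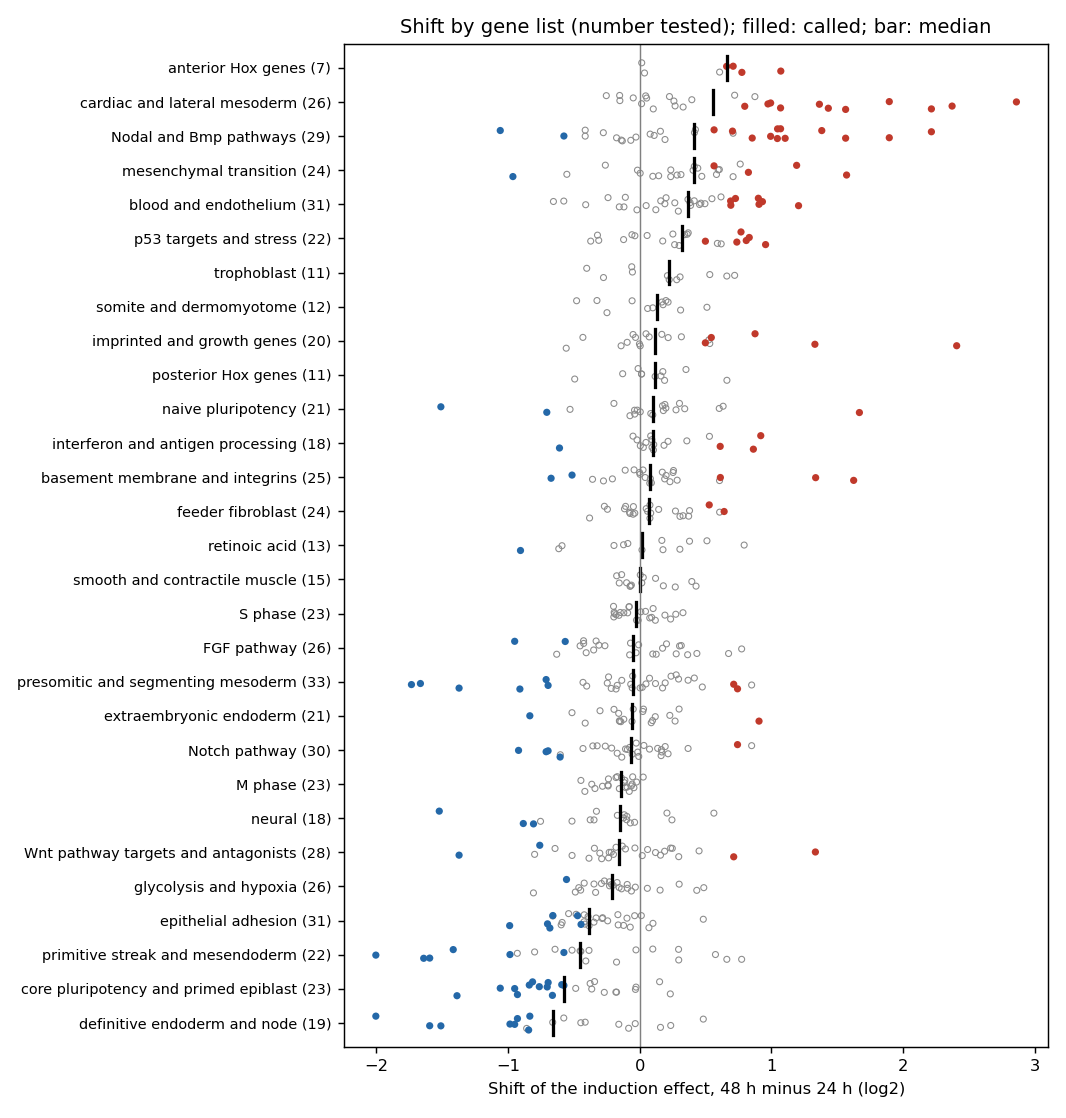
Shift of every measured gene in the 29 lists (horizontal axis, log2), with the number tested in brackets, filled points for called genes (red upward, blue downward), open points for the rest and a bar at each list's median. The medians run from -0.659 for definitive endoderm and node to 0.66 for anterior Hox genes, and many lists lie around 0.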

How the data were processed

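Gene expression was measured on 18 single-channel arrays. The deposited table holds linear signal intensity for 45101 probe sets, made with GCOS per the submitters' processing notes; the algorithm is not given in the sources used here. The 2% trimmed mean of the deposited intensity was 150 for all 18, a per-array scaling by the authors, and no normalization was added. No other column of per-sample values was used (0).

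Values were taken as log2(signal + 32), which understates the change of low genes. Of the probe sets, 34945 matched 1 gene, 932 several and 9160 none, and 64 controls were left out. Probe sets with a mean of 13.3 or more (the 40th percentile of the table) in any group were kept. The brightest kept probe set stood for its gene, giving 14346 genes, 6711 of them with several. Group means, their differences and 2-sided p-values came from limma 3.58.1 in R 4.3.3 over all 18 arrays (12 residual degrees of freedom, variances with an intensity trend, Benjamini-Hochberg adjustment over all genes, called under 0.05). The 12 h arrays add to the estimate of the spread only. Which side moved further was read from genes called in both the shift and the sum of the 2 changes.

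Named genes were Msgn1, the 10 largest shifts in each direction, the 3 largest in each direction of each side class and up to 4 called members of each list (2 without a call), passing over clone names and predicted genes. Further called members are named only in lists. The 29 lists held 653 genes, 563 tested and 101 called. The members and lists were chosen with earlier results of these data known. Nothing says whether replicates came from separate differentiations, beyond the label of biological replicates, so p-values measure the spread between these samples. The probe sets of Snai2, Apcdd1, Spint2, Hes6, Pkdcc, Eras, Sox17 and Acta2 carry a suffix that marks possible matches to other transcripts. Brachyury was not analysed here. The fit was tested on simulated data. Python 3.11.15 and matplotlib 3.10.9 drew the figures.

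Other settings were quantile normalization, no filter or one at the 60th percentile, offsets of 16 and 64, an average over all probe sets of the gene, no or a robust trend, the 12 arrays alone, replicate numbers as a block, and each array left out in turn. Within times, the deviations of same-numbered arrays correlated at 0.2, 0.13 and 0.44 at 24 h and at -0.13, -0.066 and 0.082 at 48 h. Unlike numbers reached similar values at 24 h: 0.2 for induced 1 with uninduced 2, and 0.12 for induced 2 with uninduced 1. Unlike-numbered pairs with an array numbered 3 gave -0.2 to -0.32. The 24 h values are therefore no sign of pairing by number. The numbers were not taken to pair the arrays, and named calls that the block ends are given.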

Additional observations from a re-analysis of the deposited data

Results flagged for a closer look

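The effect of induction differed between the 2 times, by the test of the difference itself, for 207 genes upward and 233 downward. The named ones follow with their shift on the log2 scale, by the side that moved further.
Upward with the induced side moving further were Pmp22 (2.86), Foxf1 (2.86), Igf2 (2.40), Hand2 (2.37), Bmp4 (2.21), Msx2 (1.89), Amer3 (1.73), Tbx3 (1.67), Asb4 (1.63) and Hapln1 (1.62). In the same class were Bmp5 (1.56), Fbln2 (1.34), Apcdd1 (1.33), Phlda2 (1.33), Kdr (1.21), Zeb1 (1.19), Hoxb2 (1.07), Erg (0.93), Usp18 (0.92) and Sox7 (0.91). In the same class were Igfbp3 (0.88), Prrx2 (0.83), Hspa1a (0.81), Hoxb1 (0.78), Hey2 (0.74), Nkd1 (0.71), Hoxb3 (0.71), Hoxd1 (0.66), Slc38a4 (0.54) and Sparc (0.53). Upward with the further side not called were Snai2 (1.57), Id2 (1.38), Plk2 (1.11), Hspa1b (0.96), Lyl1 (0.90), Cdkn1a (0.83), Ccng1 (0.77), Col5a2 (0.64) and Tap1 (0.61). Upward with the uninduced side moving further were Ak1 (1.21), Gadd45g (1.00), Zfp365 (0.99), Ifitm3 (0.86) and Nid1 (0.61). Downward with the uninduced side moving further were Foxa2 (-2.0), Aplnr (-1.73), Eomes (-1.64), Cer1 (-1.59), Lhx1 (-1.41), Dact1 (-1.37), Pkdcc (-1.27), Epha7 (-1.18), Gsc (-0.98) and Jag1 (-0.92). In the same class were Cyp26a1 (-0.91), Sox17 (-0.83), Nanog (-0.70) and Dll3 (-0.69). Downward with the induced side moving further were Trh (-1.51), Foxd3 (-1.39), Eras (-1.26), Irs4 (-1.07), Lefty1 (-1.06), Rab25 (-0.99), Cxcl12 (-0.96), Otx2 (-0.93), Sox3 (-0.88) and Hes6 (-0.71). In the same class were Epcam (-0.70), Spint2 (-0.68), Lama1 (-0.67), Cdh1 (-0.66), Bst2 (-0.61) and Pdk1 (-0.56). Downward with the further side not called were Prickle1 (-1.66), Fabp7 (-1.52), Scg5 (-1.11), Fgf5 (-0.95), Zic5 (-0.81), Sfrp1 (-0.76), Castor2 (-0.61) and Spry2 (-0.56).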

How the results depend on the processing

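The count of 440 genes in the shift ranged from 344 with the 12 arrays alone to 561 with a random block over the other settings that keep all arrays of the shift, and from 312 to 481 without 1 array. It was 352 without a filter, and 413 and 470 with offsets of 16 and 64. With an average over all probe sets of the gene it was 457, but only 351 of these were among the 440. In that setting 1 of the 440 changed sign, and none did elsewhere. Sizes changed with that average as well, from 1.56 to 0.93 for Bmp5 and from 1.63 to 1.71 for Asb4. Without 1 array, from 293 (without the induced 48 h array numbered 1) to 394 (without the induced 48 h array numbered 2) of the 440 kept their call. The median shift over all genes was -0.002 with quantile normalization and -0.000788 without.

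The counts that moved by over 1.5 times were these. The step from 12 h to 24 h had 15 genes, 9 with an average over all probe sets of the gene, 24 with the replicate block, 27 with the block as a random term, and 9 to 26 without 1 array. The 24 h effect had 552 genes, 326 without both 24 h arrays numbered 3 (a choice made after seeing the data) and 303 to 587 without 1 array. Genes with only the induced change called numbered 202, and 129 (without the induced 48 h array numbered 1) to 221 without 1 array. Those with only the uninduced change called numbered 84, and 54 (without the uninduced 48 h array numbered 1) to 96. Genes whose uninduced side moved further numbered 80, and 53 (without the induced 24 h array numbered 2, and also without the uninduced 48 h array numbered 1) to 96. Genes whose effect grew in the same direction numbered 43, but 28 with the 12 arrays alone, 22 without both 24 h arrays numbered 3, and 25 (without the induced 24 h array numbered 2) to 46 without 1 array, with 27 and 28 without the uninduced 24 h array numbered 1 and the induced 48 h array numbered 3. Genes with both sides changing in opposite directions numbered 39, and 24 (without the uninduced 48 h array numbered 3) to 40 without 1 array, but 79 where a side was called at an unadjusted p under 0.05 and 2 where an adjusted call also had to reach 1.5-fold, a rule that left 56 of the 114 genes with both sides changing in the same direction. The cause of these moves was not tested.

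With the replicate number as a block within times 510 genes were called in the shift, 403 of them among the 440. Of the named called genes Castor2, Hoxb3, Nkd1 and Sox17 lost their call with it (adjusted p = 0.0551 to 0.0615). The random block, whose estimated correlation was 0.12, called 561.

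Of the 82 named called genes 55 kept their call in all 24 settings and 27 lost it in at least 1. None of these 82 changed direction. Arrays give no count of molecules, so their number, 3 a group, and the low signal of genes such as Lyl1 and Hand2 at 24 h limit the precision.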

Other observations

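Among the 28 upward genes whose uninduced side moved further were several of amino acid supply and synthesis, a group put together after its values were seen and therefore given without a test. Asparagine synthetase (Asns) shifted by 0.50, phosphoserine aminotransferase (Psat1) by 0.62, cystathionine gamma-lyase (Cth) by 0.62, the proline synthesis gene Aldh18a1 by 0.50, the transporter gene Slc7a5 by 0.38, and Chac1, which degrades glutathione, by 0.74. Their uninduced changes were -0.39 for Asns, -0.64 for Psat1, -0.55 for Cth, -0.41 for Aldh18a1, -0.48 for Slc7a5 and -0.66 for Chac1. The induced changes of these genes lay between -0.10 for Slc7a5 and 0.089 or 0.11 for Aldh18a1 and Asns. Amino acid transporter genes of the other classes went both ways: Slc7a3 shifted by -0.66 and Slc38a5 by -0.68, but Slc7a1 by 0.98 and Slc38a4 by 0.54.

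Guidance receptors and ligands were called in both directions, again noticed after the values were seen and given without a test. Downward with the uninduced side moving further, Sema6d shifted by -0.99, Sema6a by -0.84, Ntn1 by -0.84, Epha1 by -0.75 and Epha7 by -1.18. Upward with the induced side moving further, Unc5c shifted by 1.54, Sema3a by 1.06, Nrp1 by 0.96 and Nrp2 by 0.72. Kit, the receptor of stem cell factor, shifted by -0.90, with an uninduced change of 0.94 and an induced change of 0.034.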
